A study of Mus musculus with 2 samples.

Results

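The introns described here are annotated introns that lay whole inside an exon of otherwise spliced long-read transcripts of newborn mouse calf muscle. Most were also spliced out of other transcripts of the same gene, but 250 had no splicing count in either library. An intron was taken when an exon of another counted model of its gene, with 2 or more exons and of a class named Known, NIC or NNC, covered it and reached at least 1 base past each side. Known models are annotated, NIC models combine annotated splice sites in a way no annotated transcript does, and NNC models use at least 1 unannotated splice site. Retention is the number of counts with a covering exon, divided by that number plus the counts that splice exactly this intron. An intron also needed at least 20 such informative counts in each library. Of 286659 annotated introns, 18163 in 5826 genes had a counted covering exon, and 8328 introns in 2889 genes met the count minimum. The other 9835 covered introns fell below it and were not described further. Just inside the minimum, the Arfip2 intron of 540 bases was kept in 3 of 20 counts in replicate 1 and in 0 of 20 in replicate 2, and the Mppe1 intron of 84 bases had 1 of 20 and 0 of 20. Just outside it, the Nagpa introns of 93 and 679 bases each had 2 of 19 and 0 of 19.

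The RNA came from gastrocnemius, the large fast muscle of the calf, of male B6CASTF1/J mice at 4 days of age. B6CASTF1/J mice are hybrids of a C57BL/6 and a CAST/EiJ parent. The series holds 1 group of 2 libraries, each made from 2 µg of total RNA, with no treatment and no control group. The labels number them as biological replicates with separate biosamples but with 1 donor entry in common, so the spread between them may be technical. Replicate 1 held 1066347 counts and replicate 2 held 1100253, of which 848878 and 871118 lay on Known, NIC and NNC models with 2 or more exons. The 6 muscle markers, Acta1, Ckm, Mylpf, Tnnc2, Atp2a1 and Des, were present in both libraries and summed to 144450 and 150042 counts. The 5 epidermal markers, Krt10, Krt1, Krt14, Krt5 and Lor, summed to 4 counts in replicate 1, with 4 of the 5 at 0, and to 869 in replicate 2, with 0 of the 5 at 0.

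Introns are removed from a primary transcript by the spliceosome, which reads a donor site at the start of the intron, usually GT, and an acceptor at its end, usually AG. An intron that stays in a coding region often brings a stop codon into the reading frame, and such RNAs can be held in the nucleus or degraded. Splicing factors of the SR family, which bind exons and recruit the spliceosome, are known to limit their own levels through such transcripts. Other retained introns lie in UTRs or keep the frame open, and then give a second mature form of the mRNA.

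The sequences of a few of these introns show the range of what the retention rule collects. They are read from GENCODE M21 transcripts that contain the intron, on GRCm38, 5′ to 3′ on the strand of the gene. The first, from the protein-coding last exon of Dlk1 (chr12:109459893-109460117, plus strand), is shown because 1 donor and several acceptors lie inside a coding exon. Capitals mark the donor and the last 2 bases of the nested introns of 150, 153, 219 and 225 bases.
Dlk1 225-base intron: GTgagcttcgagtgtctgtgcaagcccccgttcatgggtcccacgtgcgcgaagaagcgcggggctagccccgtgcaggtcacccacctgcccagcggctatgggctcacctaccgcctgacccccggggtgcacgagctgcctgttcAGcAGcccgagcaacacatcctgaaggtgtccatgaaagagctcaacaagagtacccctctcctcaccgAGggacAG

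Next come 2 introns of coding regions that leave the frame open when retained, from Map7d1 (chr4:126237060-126237155, minus strand) and Csnk1g2 (chr10:80638080-80638160, plus strand), and 2 from Srpk3 that do not (chrX:73776364-73776460 and chrX:73778175-73778253, plus strand). They are shown because each was both spliced and retained in both libraries. Capitals mark the first 2 and the last 2 bases.
Map7d1 96-base intron: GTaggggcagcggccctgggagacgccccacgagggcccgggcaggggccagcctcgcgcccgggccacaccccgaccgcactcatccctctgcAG
Csnk1g2 81-base intron: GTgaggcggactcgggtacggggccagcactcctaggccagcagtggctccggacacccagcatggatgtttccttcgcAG
Srpk3 97-base intron: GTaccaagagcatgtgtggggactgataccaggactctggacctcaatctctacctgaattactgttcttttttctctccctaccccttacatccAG
Srpk3 79-base intron: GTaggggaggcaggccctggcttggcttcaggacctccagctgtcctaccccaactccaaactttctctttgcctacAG

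The Dmpk intron of 87 bases (chr7:19088101-19088187, plus strand) has a second annotated donor 9 bases further on, and capitals mark both donors and the shared acceptor. The Maged2 intron of 207 bases (chrX:150811949-150812155, minus strand) and the Cdkn1c intron of 72 bases (chr7:143460027-143460098, minus strand) are shown because nearly every informative count kept them. In Maged2, capitals mark the first 2 and the last 2 bases. In Cdkn1c, they mark a run of 12 bases that both opens and closes the intron.
Dmpk 87-base intron: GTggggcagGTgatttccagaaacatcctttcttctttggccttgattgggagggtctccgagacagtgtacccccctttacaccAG
Maged2 207-base intron: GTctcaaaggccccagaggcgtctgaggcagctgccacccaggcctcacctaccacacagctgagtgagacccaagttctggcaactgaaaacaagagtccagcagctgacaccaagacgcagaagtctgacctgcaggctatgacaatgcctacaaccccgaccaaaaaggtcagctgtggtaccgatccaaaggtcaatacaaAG
Cdkn1c 72-base gap: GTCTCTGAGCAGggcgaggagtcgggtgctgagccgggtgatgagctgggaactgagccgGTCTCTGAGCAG

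The shortest introns in the set are annotated gaps of 1 base. In Oaz1 (chr10:80828275-80828315, plus strand) and Oaz2 (chr9:65686252-65686292, plus strand), which encode antizymes, inhibitors of polyamine synthesis, the gap is the base that the ribosome skips in the known frameshift of antizyme translation. It is shown in capitals with 20 bases on each side.
Oaz1 gap with flanks: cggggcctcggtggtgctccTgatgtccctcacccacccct
Oaz2 gap with flanks: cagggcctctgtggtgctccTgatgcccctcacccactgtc

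Most of the 8328 introns were kept in few transcripts. The median retention was 1.35% in replicate 1, with quartiles at 0 and 3.57%, and 1.22% in replicate 2, with quartiles at 0 and 3.45%. Retention lay under 5% in both libraries for 6430 introns (77.2%), called low here, between 5 and 95% in both for 664 introns in 474 genes (7.97%), called intermediate, and over 95% in both for 345 introns in 292 genes (4.14%), called high. The other 889 introns crossed a limit between the libraries and are called mixed. Retention was at least 50% in both libraries for 470 introns in 374 genes. For 3788 introns a single retaining count in the libraries together placed them in the set, and 3521 introns had a retaining count in both libraries.

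Across all 8328 introns, Pearson's r of retention between the libraries was 0.986 and Spearman's rho was 0.229, and across the 664 intermediate introns r was 0.944. These are correlations across introns that share the same 2 libraries, and introns are not independent replicates. The first r spans the 6430 low and 345 high introns at the ends of the scale, and 250 of the high ones had no splicing count. The 664 were chosen by their retention in both libraries, so their r is not an independent measure. The median absolute difference between libraries was 1.45 percentage points over all the introns and 3.73 points over the intermediate ones, of which 110 differed by more than 10 points. The median number of informative counts was 69 in replicate 1 and 65 in replicate 2.

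**Figure D1:**
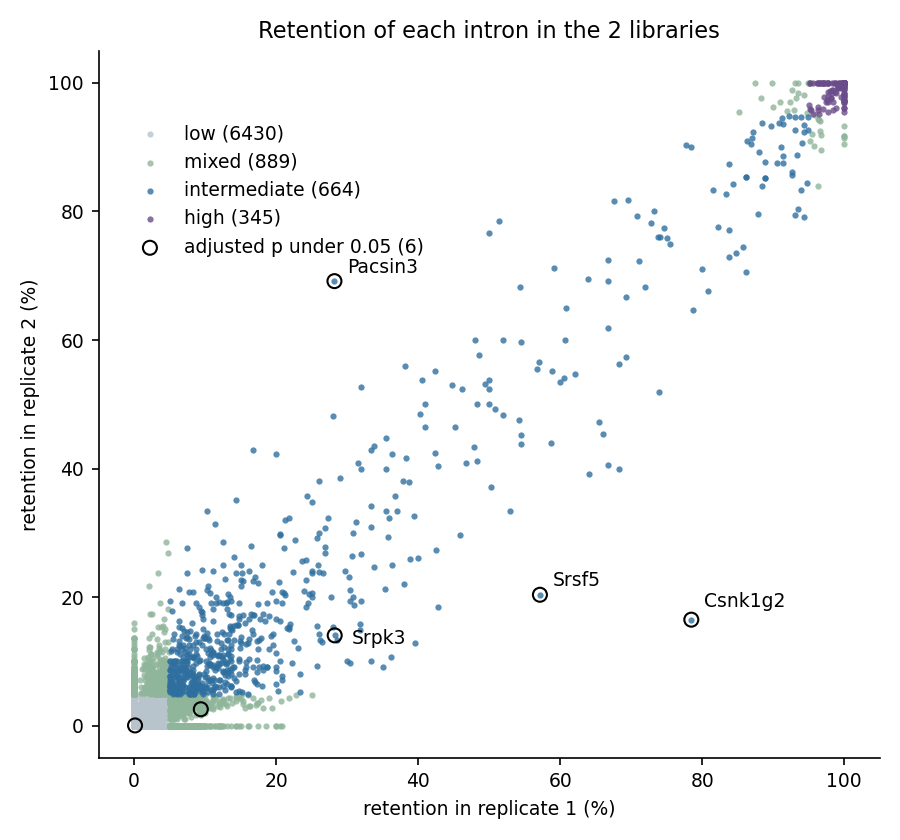
Retention of each of the 8328 introns in replicate 1 (x axis, %) and replicate 2 (y axis, %), coloured by class, with circles around the 6 introns that differed between the libraries. The 6430 low introns fill the lower left corner and the 345 high introns the upper right, and the 664 intermediate ones lie along the diagonal with Pacsin3, Srsf5 and Csnk1g2 far from it.

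Counts on spliced models that kept at least 1 low, mixed or intermediate intron made up 2.15% of the Known, NIC and NNC counts with 2 or more exons in replicate 1 and 1.95% in replicate 2. Models that kept a high intron held 5.97% and 5.59%. By the rule, models of the first kind remove at least 1 intron, since models with 1 exon are left out. Among the counts on models of the first kind, the median carried 7 removed introns, and 88.3% had 3 or more introns removed. With overlapping introns taken once, 83.5% of the counts that kept a low, mixed or intermediate intron kept 1 of them in replicate 1 and 85.3% in replicate 2. They kept 2 in 10.5% and 9.42%, 3 in 3.22% and 2.87%, and 4 or more in 2.75% and 2.44%.

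Retained introns had a shorter median length than spliced introns that no counted exon covered. The 8328 introns had a median length of 378 bases and a median of 134 informative counts over both libraries, against 1356 bases and 107 counts for the 39258 annotated introns that were spliced in at least 20 counts of each library and had no counted covering exon. Among introns of 60 to 99 bases that met the count minimum, 38.3% had a covering exon, and the share fell along the length bins to 28.8% at 200 to 499 bases, 14.3% at 1000 to 1999 and 4.06% at 2000 and more. Within the retained set, the median length was 425 bases for low, 298 for mixed, 246 for intermediate and 197 for high introns. The high class holds 39 of the 40 introns under 60 bases, with 15 gaps under 6 bases, and 250 of its 345 introns had no splicing count. The share of intermediate introns was 9.70% at 60 to 99 bases and 4.09% at 2000 and more. These are counts and medians without a test, and length, depth and gene were not separated.

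The classes also differed in what covered the intron. For low introns the covering exon with most counts was an internal exon in 82.8%, a first exon in 9.08% and a last exon in 8.10%. For intermediate introns these shares were 66.9%, 17.0% and 16.1%, and for high introns 17.1%, 34.2% and 48.7%. The class with most of the retaining counts was NIC for 88.0% of low and 62.3% of intermediate introns but for 8.70% of high ones. Known protein-coding models led for 0.918% of low, 23.3% of intermediate and 86.4% of high introns. Models that GENCODE itself types as retained intron led for 3.31% of low, 11.7% of intermediate and 2.32% of high introns. In the annotated transcript that splices it, the intron interrupted the coding sequence for 97.6% of low, 80.9% of intermediate and 27.5% of high introns.

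**Figure D2:**
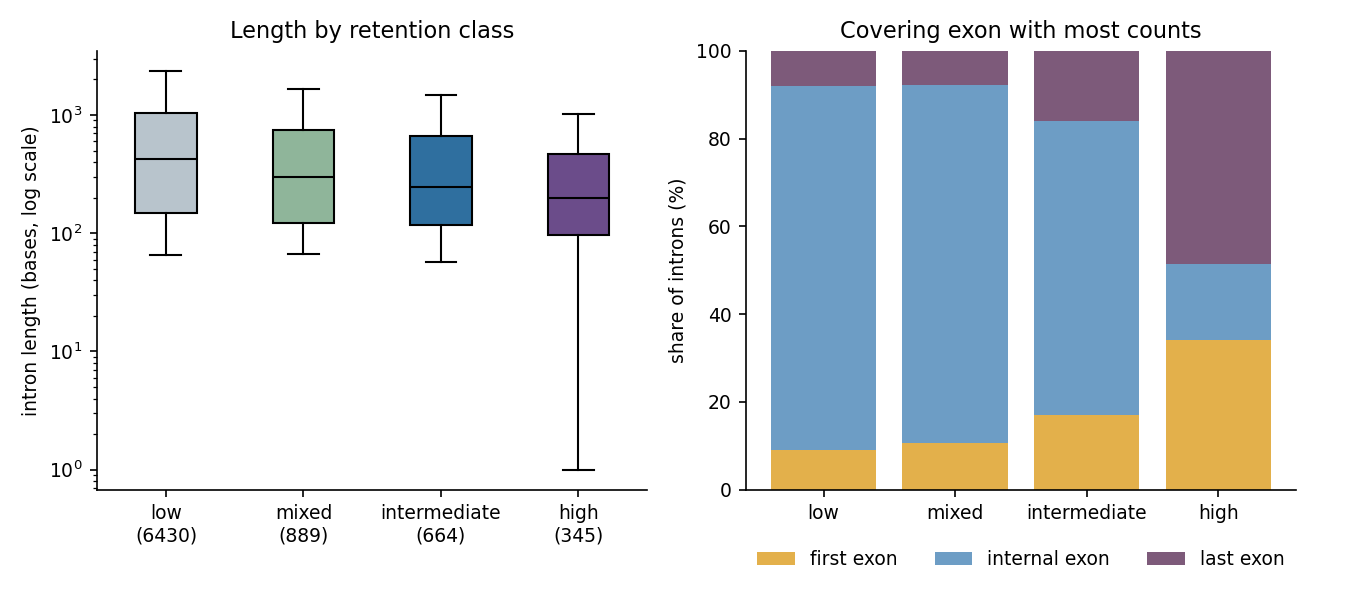
Left, length of the introns in bases on a log axis by retention class, with boxes at the quartiles, lines at the medians and extreme values not drawn. Right, the share of introns in each class whose covering exon with most counts was the first, an internal or the last exon of its model. Medians fall across the classes, at 425, 298, 246 and 197 bases, and internal exons cover 82.8% of low but 17.1% of high introns. The high class includes 39 introns shorter than 60 bases.

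The 20 intermediate introns with most retaining counts, taken at 1 per gene, were close in the 2 libraries, with Srpk3 the one exception past the test given further on. They fall into places of the gene. In protein-coding sequence, the Dlk1 intron of 225 bases was kept in 1439 of 1669 counts in replicate 1 (86.2%, exact Clopper-Pearson 95% interval 84.5 to 87.8) and in 1610 of 1887 in replicate 2 (85.3%, 83.6 to 86.9), a mean of 85.8% ± 0.635 (SD, n = 2). Dlk1, an imprinted gene of the epidermal growth factor-like family expressed in growing muscle, is known to make membrane forms with and without the stretch next to the membrane. The intron is 75 codons long and leaves the frame open. The nested introns that start at the same donor were removed less often in these counts. The form of 153 bases was spliced in 74 and 68 counts, that of 219 bases in 33 and 50, and that of 150 bases in 5 and 3, against 230 and 277 for the full 225 bases. With splicing of any overlapping intron counted as spliced, retention was 80.2% and 79.6%.

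Map7d1, a microtubule-binding protein gene, kept its 96-base coding intron in 373 of 928 counts in replicate 1 (40.2%, 37.0 to 43.4) and in 300 of 619 in replicate 2 (48.5%, 44.5 to 52.5), the intron printed above, which adds 32 codons in frame. In Known models alone it was kept in 21.9% and 29.2% of counts. The other 8 Map7d1 introns in the set were low. Pja1, which encodes a ubiquitin ligase, kept a 540-base coding intron with an open frame in 109 of 146 and 110 of 142 counts (74.7% and 77.5%). The 87-base Dmpk intron, in the gene of the kinase whose repeat causes myotonic dystrophy, was kept in 250 of 268 and 190 of 214 counts (93.3% and 88.8%). Splicing from the inner Dmpk donor, which removes 78 bases in frame, was counted 3 times in each library.

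Introns of 5′ UTRs form a second group. Hspa5, the chaperone BiP of the endoplasmic reticulum, kept its 82-base leader intron in 126 of 587 counts in replicate 1 (21.5%) and in 70 of 461 in replicate 2 (15.2%). The leader introns of Spop, an adaptor of a ubiquitin ligase (200 bases, 90.8% and 93.8%), of Uqcrq, a subunit of respiratory complex III (85 bases, 91.3% and 93.6%), and of Paics, an enzyme of purine synthesis (367 bases, 93.1% and 94.8%), were kept in most counts. Ubl3 (106 bases, 91.4% and 87.6%) and Lamb1, a laminin chain (135 bases, 84.3% in each library), lay a little lower. The leader introns of Arpc2, a subunit of the actin-nucleating Arp2/3 complex (207 bases, 57.1% and 56.5%), and of Nrep (180 bases, 58.8% and 55.2%) were close to even. In all of these except Lamb1 the covering first exon held the intron within the 5′ UTR. Here the covering exon is the first of its model, so this retention is also a choice of first exon.

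Another group lies at the 3′ end. Srsf2, an SR protein, kept a 502-base 3′ UTR intron in 214 of 230 and 240 of 259 counts (93.0% and 92.7%). Glo1, an enzyme that clears methylglyoxal, kept 1040 bases of its 3′ UTR in 94.3% and 92.4% of counts, and Mmp2, a matrix protease, kept 461 bases in 88.5% and 93.8%. In Ptov1 the 184-base intron was kept in 221 of 458 and 185 of 450 counts (48.3% and 41.1%), but in Known models alone in 98.5% and 100% of them. Last-exon introns that cross the end of the coding region, so that retention brings a stop codon and another end of the protein, were kept in Ppp1cc, a catalytic subunit of protein phosphatase 1 (864 bases, 87.8% and 79.5%), and in Wars, the tryptophanyl-tRNA synthetase gene (935 bases, 94.4% and 93.4%). Rsrp1, an arginine and serine rich protein gene, kept a 1302-base intron inside an internal exon in 189 of 205 and 130 of 137 counts (92.2% and 94.9%), and the covering models with most of those counts are of the GENCODE type retained intron.

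**Figure D3:**
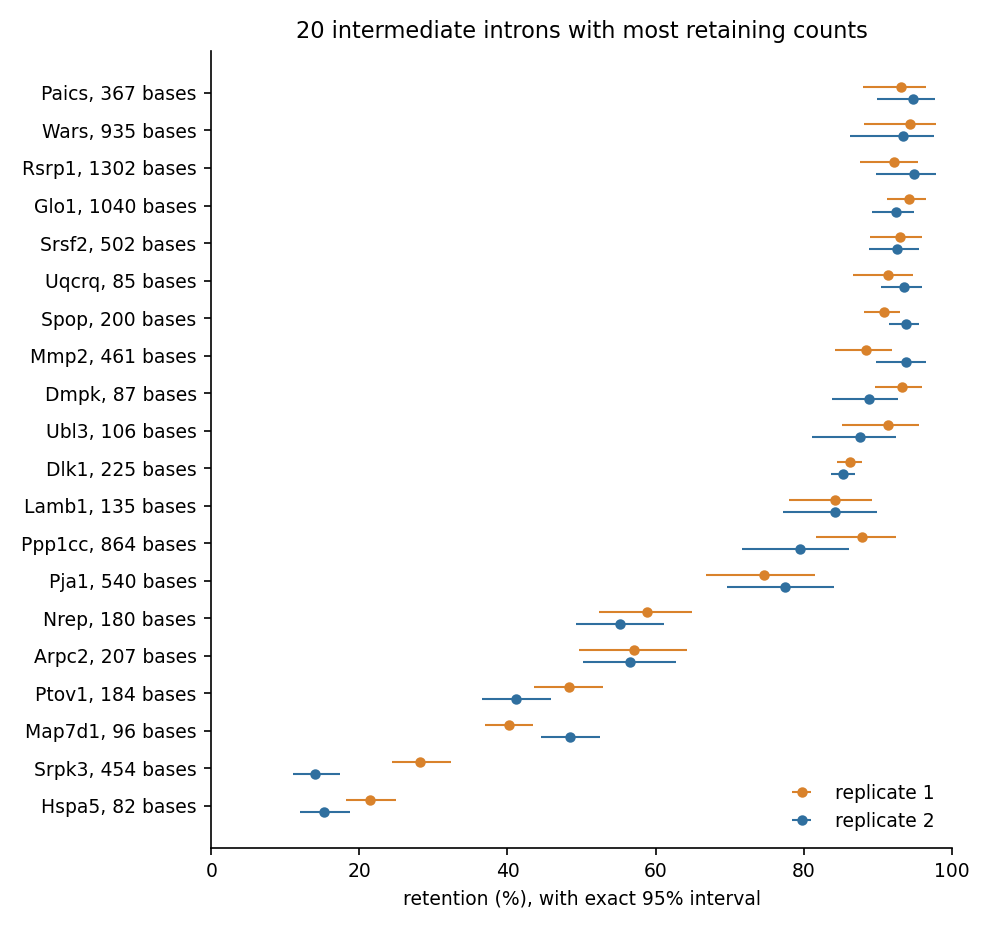
Retention in % with the exact 95% interval for the 20 intermediate introns with most retaining counts, in replicate 1 (orange) and replicate 2 (blue), with the gene and the intron length in bases at the left. From Hspa5 at 21.5% and 15.2% to Paics at 93.1% and 94.8%, the intervals of the libraries overlap except for Srpk3 and Map7d1, where they lie apart.

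In SR protein genes, intermediate introns made up a larger share of the set than over all genes. Of 13 SR protein genes listed, 8 had introns in the set, and 13 of their 26 introns were intermediate (50%) against 7.97% of all 8328. Their median retention was 29.0% in replicate 1 and 20.8% in replicate 2, against 1.35% and 1.22% over all. With any overlapping intron counted as spliced, 11 of the 26 were intermediate. The SR protein medians were then 15.2% and 9.90%, against 1.28% and 1.14% over all. The list was chosen with earlier results of these data known, several of the 26 overlap each other, and no test was made. Neither this list nor those below were matched to all genes for counts, and the intermediate share moves with counts. Over all genes 1302 of 10762 introns were intermediate at a minimum of 10 counts in each library, and 204 of 4731 at a minimum of 50.

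Srsf7 carried 6 of the 13. Its introns of 1377, 1386 and 1410 bases have 1 splice site in common, differ at the other and share their 18 and 13 retaining counts. Their internal covering exon gave 52.9% and 33.3%, 35.3% and 21.3%, and 66.7% and 61.9%. Its 874-base intron was kept in 23 of 72 and 24 of 90 counts (31.9% and 26.7%), and the shorter 180-base and 234-base introns within it in 92.6% of counts in replicate 1 and in 86.2% and 85.7% in replicate 2. With any overlapping intron counted as spliced, the first 3 stood at 23.7% and 13.7% each, the 180-base intron at 32.9% and 26.3% and the 234-base intron at 32.9% and 25.3%. Srsf1 kept a 196-base coding intron in 12 of 55 and 8 of 53 counts (21.8% and 15.1%) and an 881-base 3′ UTR intron in 39 of 61 and 41 of 59 (63.9% and 69.5%). Srsf3 shows how much the choice of intron sets the value. Its 6 and 8 retaining counts gave 26.1% and 38.1% of the 829-base intron but 5.45% and 5.23% of the 2150-base intron from the same donor. The Srsf3 intron of 865 bases, at 50% in each library, had 22 and 20 informative counts. With any overlapping intron counted it stood at 8.59% and 5.99%, and both of the others at 4.69% and 4.82%. In Known models alone, the 196-base Srsf1 intron was kept in 5.26% and 2.44% of counts.

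Srsf5 kept its 1229-base coding intron in 60 of 105 counts in replicate 1 (57.1%, 47.1 to 66.8) and in 33 of 162 in replicate 2 (20.4%, 14.5 to 27.4), a difference past the test given below. Retained, the intron brings a stop codon into the frame. Its splice sites (chr12:80947861-80947880 and chr12:80949070-80949099, plus strand) are shown beside those of the Rsrp1 intron (chr4:134925428-134925447 and chr4:134926710-134926739, plus strand), another long coding intron that brings a stop codon into the frame when retained. Each donor line has 5 exon and 15 intron bases, each acceptor line 25 intron and 5 exon bases, and capitals mark the first or last 2 bases of the intron.
Srsf5 donor: ggcagGTttgttgaaataca
Srsf5 acceptor: cttaacataattgtcttgtgttaAGgatct
Rsrp1 donor: tggagGTaagtgccttcagg
Rsrp1 acceptor: tgtttaaaattctcttcctctttAGcattc

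Among 25 listed kinases of SR proteins and SR-related factors, 15 genes had 61 introns in the set, 18 of them intermediate (29.5%), with a median of 4.65% and 1.92%. Srpk3, the muscle form of the SR protein kinases, had 13 introns in the set. Its 454-base intron was kept in 146 of 517 counts in replicate 1 (28.2%) and in 69 of 491 in replicate 2 (14.1%). The 97-base, 79-base and 483-base introns stood close in the libraries, at 13.2% and 11.2%, 11.9% and 10.8%, and 16.6% and 14.9%. In Known models alone each of these 3 was kept in 0% and 1.12% of counts. Each count belongs to 1 transcript model with its full set of exons, so the 4 Srpk3 introns could be followed together. Of 401 counts in replicate 1 that were informative for all 4, 266 kept none, 71 kept 1, 36 kept 2 or 3 and 28 kept all 4. Of 368 in replicate 2, 274 kept none, 38 kept 1, 38 kept 2 or 3 and 18 kept all 4.

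Other regulators of the list kept introns at levels from under 10% to 60%. Pnisr, an SR-like nuclear protein gene, kept introns of 1032, 736 and 240 bases in 17.9% and 25%, 20.5% and 29.8%, and 31.6% and 40.9% of counts, and all 3 were kept in 6 of 38 counts in replicate 1 and in 12 of 43 in replicate 2. Clk2, a kinase of SR proteins, kept its 346-base intron in 6 of 39 and 9 of 40 counts (15.4% and 22.5%), and its overlapping introns of 691 and 694 bases in 5 counts of each library. Ddx5, an RNA helicase, kept 1265 bases in 72 of 565 and 53 of 534 counts (12.7% and 9.93%), with most of them on models that GENCODE types as targets of nonsense-mediated decay, the pathway that degrades RNAs with early stop codons. With ISM models the Ddx5 intron stood at 23.9% and 19.4%, and the 240-base Pnisr intron at 64.4% and 55.0%. Rbm39 (1494 bases in the 3′ UTR, 25.7% and 29.2%), Prpf4b (3 introns of 498 to 1793 bases, 46.2% to 60%) and Luc7l3 (1506 bases, 40.9% and 50%) rested on 20 to 89 informative counts per library. The Rbm39 introns of 1791 and 224 bases, which share a splice site, were kept in the same 7 and 16 counts, 5.19% and 11.6% of the first and 9.46% and 17.8% of the second. With any overlapping intron counted as spliced, each stood at 3.45% and 7.55%, and the 1494-base intron at 8.87% and 12.3%.

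Of 25 listed hnRNP and FET genes, which encode abundant RNA-binding proteins, 16 had 56 introns in the set, with 10 intermediate (17.9%) and a median of 0.764% and 0.907%, below that of all introns. The 10 lay in 5 genes. Tardbp, which encodes TDP-43, kept a 721-base 3′ UTR intron in 28 of 41 and 10 of 25 counts (68.3% and 40%) and last-exon introns of 959 and 968 bases in 79.2% to 94.3% of counts. Hnrnpdl kept 3 overlapping 3′ UTR introns, and its 1119-base intron was kept in 17 of 43 counts in replicate 1 (39.5%) and in 13 of 101 in replicate 2 (12.9%), which missed the threshold (Fisher's exact test, adjusted p = 0.645). Hnrnpl kept a 111-base coding intron that leaves the frame open in 11 of 148 and 19 of 180 counts (7.43% and 10.6%). Ewsr1 kept 2733 bases in 6.94% of counts in each library. Hnrnpa2b1 kept its 156-base 3′ UTR intron in 7.85% and 5.41%, while the 1355-base intron from the same site gave 54.3% and 68.2% from 35 and 22 informative counts, or 6.46% and 4.16% with any overlapping intron counted as spliced. The 156-base intron was kept in 0% and 0.712% of counts in Known models alone, and in 13.4% and 9.60% with ISM models. Of 12 listed muscle splicing regulators, 3 genes had 9 introns in the set, with 6 low, 1 mixed and 2 high.

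A list of 10 genes with retained introns described elsewhere had 16 introns from 4 genes in the set. Of these, 2 were intermediate (12.5%) and 5 high, against 7.97% and 4.14% of all 8328 introns. Their median was 9.09% and 7.51%, against 1.35% and 1.22% over all. Whether the 16 are the introns described elsewhere was not tested. The 2 intermediate ones lie in Srsf5 and in Mat2a. Mat2a encodes the enzyme that makes S-adenosylmethionine, and its intron retention is known to respond to it. Mat2a kept the 585-base intron in 50 of 508 counts in replicate 1 (9.84%) and in 52 of 373 in replicate 2 (13.9%).

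Introns in genes of the contractile apparatus were mostly low. Of 196 introns in 40 sarcomere and calcium handling genes, 183 were low and 4 intermediate (2.04%), with a median retention of 0.0917% and 0.0269%. Collagen and matrix genes had 98 of 103 introns low (medians 0.0253% and 0.00721%), glycolytic genes 66 of 67 (0.123% and 0.0900%) and nuclear genes of oxidative phosphorylation 78 of 83 (0.273% and 0.134%). These are among the most counted genes, and with many informative counts a single retaining count places an intron in the set at a retention far below what a gene with few counts could show. In Acta1, the skeletal actin, 1 retaining count among 48947 and 1 among 63351 placed the 76-base intron at 0.00204% and 0.00158%.

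Of the other 13 introns of the sarcomere list, 6 were mixed, in Mybph, Tpm2 and Acta1, and 3 were high, in Actn2 and Cryab. The 4 intermediate ones were in Tnnt3, fast troponin T, with a 546-base intron at 7 of 25 and 13 of 27 counts (28.0% and 48.1%) and a 1703-base one at 7.69% and 8.11%, Myl1, with 244 bases at 10.3% and 9.32%, and Pdlim7, with 962 bases at 9.09% and 10.0%. Few counts spliced exactly these introns. With any overlapping intron counted as spliced they stood at 5.74% and 6.84%, 2.44% and 3.14%, 0.122% and 0.136%, and 1.67% and 1.11%. With ISM models added, the 546-base Tnnt3 intron stood at 71.8% and 85.7% and the Myl1 intron at 12.9% and 44.0%, and the Myl1 intron then differed between the libraries (Fisher's exact test, adjusted p = 0.000664). In glycolysis, Gapdh had 1 intermediate intron of 84 bases, 7 of 49 and 3 of 43 counts (14.3% and 6.98%). Gapdh has many processed pseudogenes, so its assignment is less certain. In oxidative phosphorylation, Cyc1, cytochrome c1, kept a first-exon intron in 31 and 35 counts, which were 86.1% and 85.4% of the informative counts for the 587-base intron but 4.53% and 4.10% for the 609-base one from the same donor, spliced in 653 and 818 counts.

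**Figure D4:**
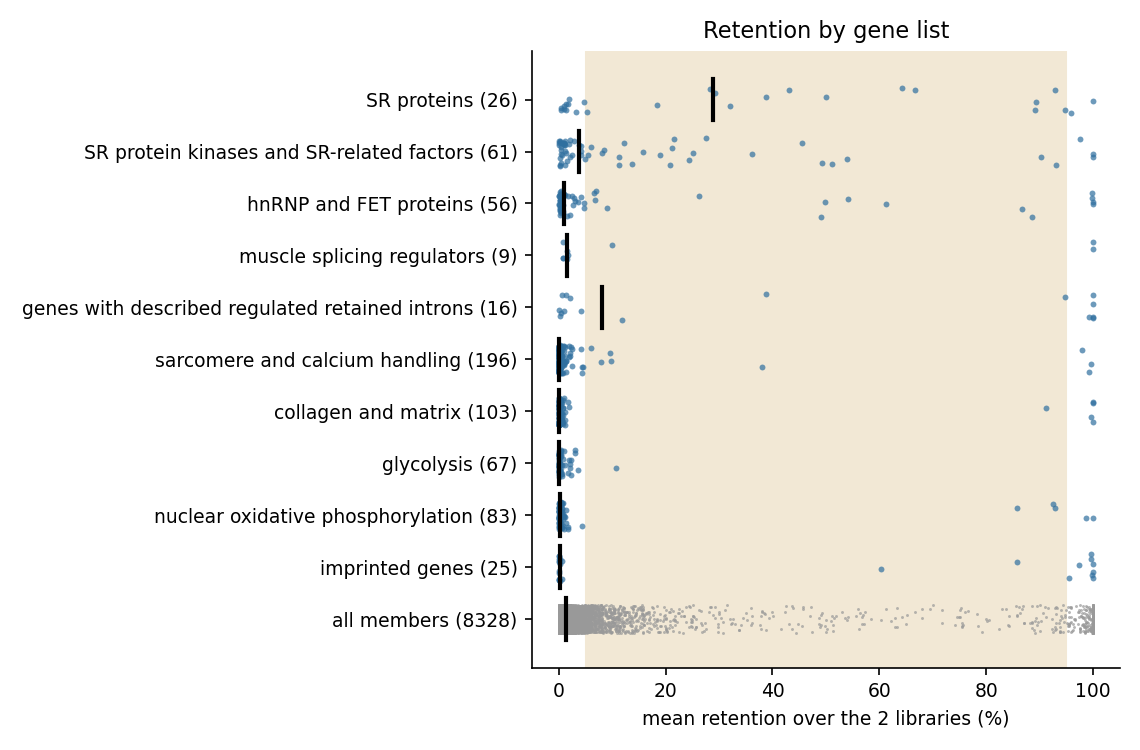
Mean retention over the 2 libraries in % for each intron of 10 gene lists and for all 8328 introns, 1 point per intron, with the median as a black bar, the number of introns in brackets and the 5 to 95% range shaded. SR protein genes spread over the shaded range with 13 of 26 introns intermediate, while 183 of 196 introns of sarcomere and calcium handling genes lie under 5%.

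Imprinted genes gave 25 introns from 6 genes, of which 15 were low, 8 high and 2 intermediate. Beside Dlk1, Meg3, a long non-coding RNA of the same locus, kept a 205-base intron in 51 of 84 and 36 of 60 counts (60.7% and 60%), or in 11.4% and 11.7% with any overlapping intron counted and in 100% in Known models alone. H19, an imprinted non-coding RNA abundant in newborn muscle, held both ends of the scale. Its 191-base intron in the first exon was kept in all of 4658 and 4269 counts. For splicing of exactly this intron, 0 counts allow a share of up to 0.0644% and 0.0703%. With any overlapping intron counted as spliced, the 191-base intron was kept in 4658 of 4678 and 4269 of 4273 counts. Its introns of 88, 78 and 82 bases were kept in at most 0.591% of counts.

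The high introns are retained by the rule, but most of them were not seen spliced in these libraries. Of 345, 250 had no splicing count in either library and 95 had at least 1. With any overlapping intron counted as spliced, 258 of the 345 stayed high. Of the 237 unspliced ones of 4 or more bases whose letters could be read, 162 began with GT and ended with AG (68.4%), 26 read GC-AG and 49 had other letters, against 88 of 95 GT-AG among those with a splicing count (92.6%). For 95 high introns that interrupt the coding region of an annotated transcript that splices them, the frame was that of the annotated transcript. Adding the intron to it kept the frame open in 25, brought a stop codon in 42 and shifted the frame in 28. By this reading the 1-base Oaz1 and Oaz2 gaps bring a stop codon. Whether the counted transcripts that cover these introns carry such a stop was not tested. Sequence was at hand for fewer than 80% of introns that interrupt a coding region in the other classes, so the same frame count there is void.

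Of 40 introns shorter than 60 bases, 39 were high, and the other was a 57-base Gcdh intron at 21.1% and 20.6%. The 15 gaps shorter than 6 bases, in 11 genes, were all high and had no splicing count. The Oaz1 gap of 1 base printed above was covered by 1322 and 1911 counts and the Oaz2 gap by 536 and 489. As this base is skipped in translation, no limit on a spliced share is drawn from these counts. The 2 gaps of 2 bases in Cfl1, the actin-severing protein cofilin, were covered by 278 and 401 counts.

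Among the high introns with most counts, Cdkn1c, an imprinted inhibitor of the cell cycle, kept its 72 bases in 3287 of 3295 counts and 3226 of 3239 (99.8% and 99.6%), with splicing counts of 8 and 13 that remove 24 codons in frame. With any overlapping intron counted as spliced, the Cdkn1c intron was kept in 3287 of 3759 and 3226 of 3703 counts (87.4% and 87.1%). Actn2, alpha-actinin of the Z disc, kept a 48-base gap in its 5′ UTR in 99.2% and 99.4%, and the gap opens with CC and ends with AT. Maged2 kept its 207 bases, 69 codons, in all of 2853 and 2572 counts. Sparc, a matrix protein, kept a 223-base intron at its first exon in 830 of 831 and 906 of 911 counts, and Nipsnap2 kept 399 bases of its 3′ UTR in 870 of 873 and 831 of 835. No splicing count was seen for Actb (150 bases, 835 and 832 retaining counts), Hsp90ab1 (37 bases, 1130 and 817), P4hb (518 bases, 869 and 686), Eif4g2 (138 bases, 741 and 713), Bsg (115 bases, 579 and 773) or Tmed2 (45 bases, 480 and 506). Actb and Hsp90ab1 also have processed pseudogenes, so their assignment is less certain.

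Retention was then compared between the libraries, intron by intron, with a two-sided Fisher's exact test on retaining and splicing counts and Benjamini-Hochberg adjustment over all 8328. The test holds counting error only and compares 2 libraries of 1 group, not 2 conditions. It called 6 introns in 5 genes (0.0720% of those tested), 1 higher and 5 lower in replicate 2, and 97 had an unadjusted p under 0.05.

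The largest difference was the 81-base Csnk1g2 intron, in the gene of a casein kinase, kept in 32 of 194 counts in replicate 2 (16.5%) and in 51 of 65 in replicate 1 (78.5%; Fisher's exact test, adjusted p = 1.17e-15). It was no longer called when ISM models were added, at 33 of 198 counts (16.7%) and 51 of 248 (20.6%; Fisher's exact test, adjusted p = 1). ISM models are those whose introns are part of the chain of another model, which need not be annotated. A model with the same 11 introns held 145 counts under NIC in replicate 2 and 175 under ISM in replicate 1. Over all genes, 434 of 38697 intron chains counted in both libraries (1.12%) were ISM in one and Known, NIC or NNC in the other, and retention as defined here takes the second kind alone.

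The Srsf5 intron was lower in replicate 2, at 20.4% against 57.1% in replicate 1 (Fisher's exact test, adjusted p = 3.96e-06), and stayed so with ISM models, at 44 of 175 counts (25.1%) and 62 of 109 (56.9%; adjusted p = 4.47e-05). In Known models alone the call was lost, at 6 of 126 counts (4.76%) and 7 of 52 (13.5%; Fisher's exact test, adjusted p = 1). The 454-base Srpk3 intron was lower in replicate 2 as well, at 14.1% against 28.2% (Fisher's exact test, adjusted p = 0.000106), and with ISM models at 14.1% and 29.7% (adjusted p = 7.29e-07). Pacsin3, a muscle protein of membrane curvature, kept its 111-base 5′ UTR intron in 74 of 107 counts in replicate 2 (69.2%) and in 11 of 39 in replicate 1 (28.2%; Fisher's exact test, adjusted p = 0.0268). With ISM models this was 73.6% and 50.9% and past no threshold (Fisher's exact test, adjusted p = 0.529).

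The 98-base Acta1 intron was kept in 26 of 63320 counts in replicate 2 (0.0411%) and in 59 of 48916 in replicate 1 (0.121%; Fisher's exact test, adjusted p = 0.00285), and the call held with ISM models (adjusted p = 0.000269). The 180-base Acta1 leader intron, kept in 14 of 547 and 58 of 618 counts in replicates 2 and 1 (2.56% and 9.39%; Fisher's exact test, adjusted p = 0.00143), was not called with ISM models, where the direction turned, at 12.8% and 10.7% (adjusted p = 1). Few counts spliced exactly this leader intron. With any overlapping intron counted as spliced it stood at 0.0221% and 0.119% (Fisher's exact test, adjusted p = 1.04e-06). The next smallest adjusted p belonged to a 418-base 3′ UTR intron of Atp2a1, which encodes a muscle calcium pump, at 0.920% and 1.82% in replicates 2 and 1 (Fisher's exact test, adjusted p = 0.0726). Hnrnpdl, Aldoa, Lmna and Map7d1 followed with adjusted p of 0.645, 0.909, 0.909 and 1, with 95-base Aldoa retention of 0.324% and 0.0559% and 705-base Lmna retention of 5.16% and 1.14% in replicates 2 and 1. Epidermal marker counts also differed between the libraries, as given above, and their part in these differences was not tested.

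**Figure D5:**
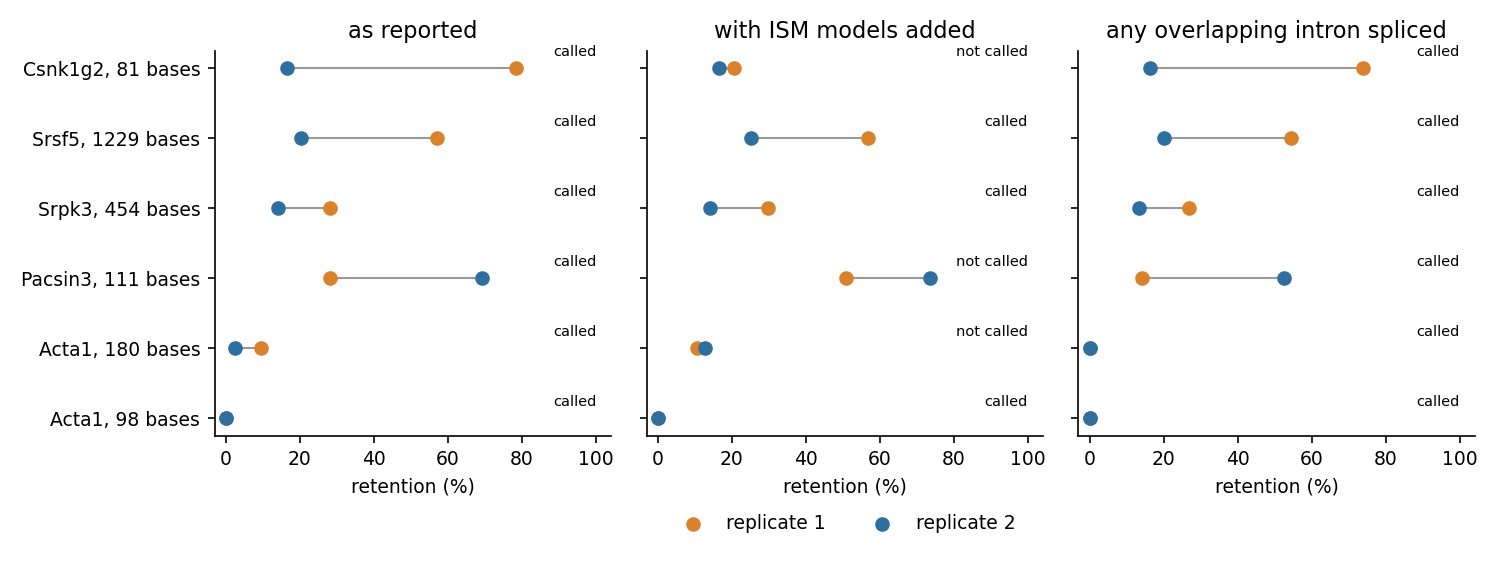
Retention in % of the 6 introns called between the libraries, in replicate 1 (orange) and replicate 2 (blue), as reported, with ISM models added, and with any overlapping intron counted as spliced. With ISM models the Csnk1g2 points move together to 20.6% and 16.7% and 3 of the 6 calls are lost, while all 6 hold with any overlapping intron counted.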

How the data were processed

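Per the file headers, the authors deposited raw read counts per transcript model, 1 table per library in TALON format, with exon coordinates (start and end of each exon) in a matching annotation on mm10 with GENCODE M21 identifiers. The aligner, filters and tool versions were not given in the sources used here. Both annotations held the same 141958 annotated models. From these counts, retention and its exact Clopper-Pearson 95% interval were computed in Python 3.11.15 with SciPy 1.17.1, pandas 2.3.3 and NumPy 2.4.6, and figures were drawn with matplotlib 3.10.9. Intervals, tests and the limit of 3 counts behind a count of 0 cover counting error only. Unannotated models were matched between libraries by their exon structure. Coding places and sequences came from GENCODE M21, and introns without an annotated covering transcript have no sequence here. The script was tested on simulated data.

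The members, gene lists and naming rule were chosen with earlier results of these data known. Named were, at 1 intron per gene, the 20 intermediate introns with most retaining counts, the 10 high introns with the highest mean and the 10 with most retaining counts, the 10 smallest adjusted p, and all intermediate introns of the gene lists. Cyc1 609, H19 low, Gcdh, short-gap and nested introns and the introns followed together were chosen after their values were seen. Alternatives were count minimums of 10 and 50, other model classes, internal covering exons, 10 bases past each side, introns of at least 60 bases, 1 intron per overlapping set, Holm adjustment, a difference of 10 points and each replicate alone. Counting any overlapping intron as spliced was chosen after seeing the data.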

Additional observations from a re-analysis of the deposited data

Results flagged for a closer look

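Models with a single exon were left out of retention, since they show no splicing. Such models lying over retained introns under 95% retention held 1530 counts in replicate 1, on 200 models over 364 introns, and 1165 counts in replicate 2, on 166 models over 279 introns. They were picked out as counts, above the limit of 3 that a count of 0 allows, in data the comparison did not use. Sums over this many models pass that limit easily, so it says nothing about their size.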

How the results depend on the processing

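Main values were 8328 introns, 664 intermediate, 470 at 50% or more, a median retention of 1.29% (mean of the 2 library medians) and 6 introns that differed. A minimum of 10 counts gave 1302 intermediate, 787 at 50% or more and a median of 1.67%, and a minimum of 50 gave 4731 introns, 204, 225 and 0.759%. Known models alone gave 1044 introns, 188 intermediate, a median of 8.14% and 0 that differed by Fisher's exact test (23 at an unadjusted p under 0.05). With ISM models 1008 were intermediate and 43 differed. Internal covering exons alone gave 425 intermediate, 85 at 50% or more and a median of 1.10%. Counting any overlapping intron as spliced, chosen after seeing the data, gave 1090 intermediate; 585 of the 664 stayed intermediate and 31 fell below 5% in both libraries. Each library alone gave 8817 to 9236 introns, 1289 to 1429 intermediate, 535 to 587 at 50% or more and medians of 1.32% to 1.54%. The cause of these moves was not tested, beyond fewer or more introns entering. Of the values of 87 named introns under these alternatives, 650 stayed within their spread or kept their call, 81 moved by more than their spread, 1 gained a call, 4 lost their call and 1 turned its direction. The count minimums of 10 and 50, the 60-base limit and 1 intron per overlapping set leave an intron's own counts unchanged. Retention could not move there, and 87, 57, 82 and 67 of the 650 came from them. With Known models alone 31 stayed and 20 moved, with ISM models 63 and 20, and with any overlapping intron counted as spliced 48 and 39. With ISM models Myl1 gained a call (mean retention 28.4%), the 180-base Acta1 intron turned (mean 11.7%, no longer called) and Csnk1g2 and Pacsin3 lost theirs. With Known models alone Csnk1g2 (100%) and Srsf5 (9.11%) lost theirs. No paired analysis was possible because the series has 1 group.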
